A study of Homo sapiens with 24 samples.

Results

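Glucose uptake and glycolysis were followed here through the transcripts of 10 genes, SLC2A1, HK1, HK2, PFKP, ALDOA, TPI1, PGK1, ENO1, PKM and LDHA, each found as 1 row, by gene symbol, among the 63299 genes of the count table. The table came from whole transcriptome RNA-Seq of 2 ovarian cancer cell lines, platinum-sensitive A2780 and its platinum-resistant relative A2780cis. In each line 5-FdU-ECyd was added at 1 µM in fresh medium to the treated cells, controls received fresh standard medium, and both were harvested after 6 h or 12 h, which makes 8 groups of 3 libraries and 24 libraries in all. 5-FdU-ECyd joins a fluorinated deoxyuridine, an inhibitor of thymidylate synthase, to ethynylcytidine, an inhibitor of RNA synthesis. A2780cis cells, treated and untreated alike, had been kept resistant by growth in 1 µM cisplatin for a passage at intervals, and they were seeded at a higher number per flask than A2780 cells. Each line is a single resistant or sensitive culture, so a difference between the lines cannot be told apart from a difference in seeding or culture history.

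Glycolysis turns glucose into pyruvate in the cytosol, and rapidly growing cells often run it at a high rate and release much of the carbon as lactate. SLC2A1 (GLUT1) carries glucose into the cell, the hexokinases HK1 and HK2 trap it by phosphorylation, and PFKP is the platelet-type phosphofructokinase, an isozyme of the main control step. ALDOA splits the phosphorylated sugar, TPI1 interconverts the resulting triose phosphates, PGK1 makes ATP, ENO1 makes phosphoenolpyruvate, PKM makes pyruvate and a further ATP, and LDHA reduces pyruvate to lactate. Several of these genes are textbook targets of the hypoxia-inducible factors and of MYC.

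The libraries held 11077368 to 21901406 counts, and the 10 genes together took 0.468 to 0.709% of them. Levels are CPM, that is counts scaled to library size, after TMM normalization, given as mean ± SD of 3 libraries, and levels of different genes are compared only as CPM per kb of exon. Changes are log2 fold changes (log2 FC) ± standard error from edgeR's quasi-likelihood test, with p-values adjusted over the 20240 genes tested, and a gene is said to rise or fall where the adjusted p was at most 0.05. All 10 genes passed the filter on low counts. The values are shares of the RNA sequenced, so fewer transcripts per cell and a changed mix of cells cannot be told apart. Rises and falls are relative to the other transcripts, and the amount of RNA per cell is not given. A transcript said to rise can therefore be one that was lost less than the rest. The p-values measure the spread between libraries within groups, pooled over the 8 groups. The paper calls the 3 libraries of a group biological triplicates, and whether they came from separate experiments is not stated. Of the markers checked against the labelled origin, KRT7 had no count in any library, CDH1, PAX8, WT1, MUC16 and KRT19 had at most 6, and KRT18 reached 29.2 CPM. The 10 epithelial and ovarian markers summed to 5.13 to 18.1 CPM in A2780 libraries and to 25.5 to 47.4 CPM in A2780cis libraries. Markers of blood cells and endothelium (PTPRC, CD3E, PECAM1 and VWF) had at most 1 count in a library. The whole list of 10 markers of other cell types, led by the collagen gene COL3A1, summed to 275 to 373 CPM in the A2780 libraries. In the A2780cis libraries it summed to 1384 to 2165 CPM. Without COL3A1 the order was the reverse, with 75.0 to 97.7 CPM in A2780 and 4.55 to 9.54 CPM in A2780cis. The part of these markers in the differences between the lines was not tested. The first untreated A2780 library at 6 h stood apart in several of the 10 genes, with ALDOA at 192 CPM against 356 and 333 CPM in the other two, and the calls that were lost without it are named beside the results.

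Per kb of exon, the later steps of the pathway were far more abundant than its entry in untreated cells. In untreated A2780 cells at 6 h, ENO1 stood at 388 CPM per kb, TPI1 at 322, LDHA at 236 and PGK1 at 167. ALDOA and PKM were intermediate at 76.7 and 72.3 CPM per kb. The entry steps were low, with HK2 at 11.3, HK1 at 9.52, SLC2A1 at 4.05 and PFKP at 1.83 CPM per kb. Untreated A2780cis cells at 6 h kept that split between entry and later steps, with ENO1 at 352 and TPI1 at 334 CPM per kb against HK2 at 15.8 and SLC2A1 at 3.97, while PFKP stood at 11.6 CPM per kb, the level of the hexokinases.

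**Figure D1:**
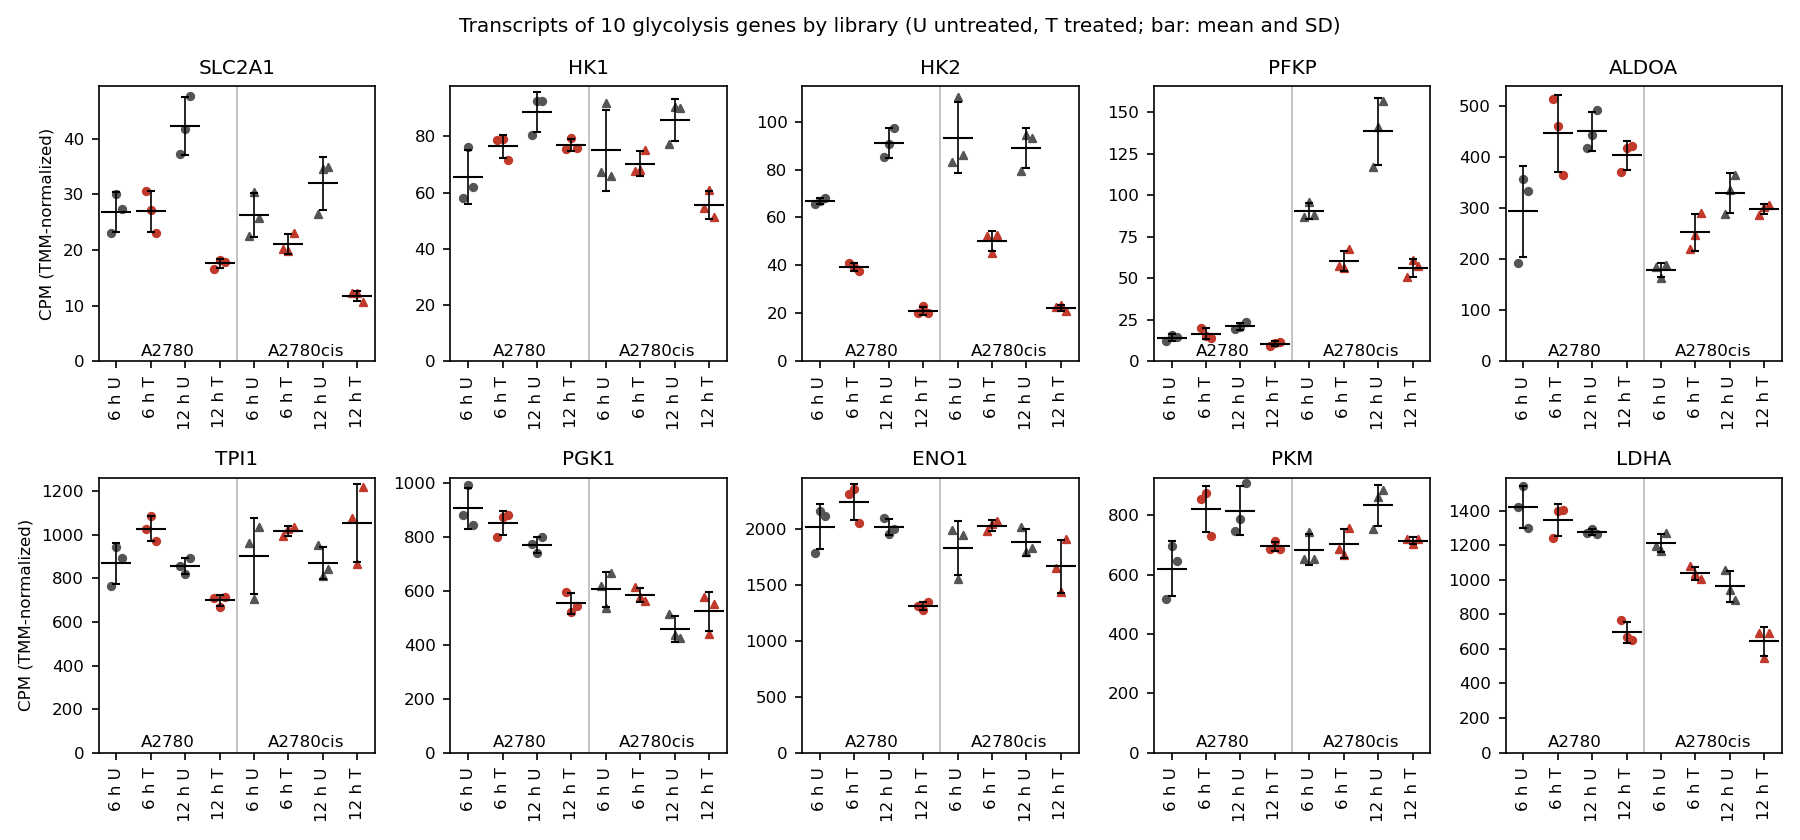
TMM-normalized CPM (y axes, from 0) of the 10 genes in all 24 libraries, by group (x axes: U untreated, T treated with 5-FdU-ECyd; circles A2780, triangles A2780cis; grey untreated, red treated). Horizontal bars and whiskers are the mean and SD of 3 libraries; HK2 and SLC2A1 are lowest in the treated 12 h groups of both lines, and PFKP is high in A2780cis.

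After 12 h of 5-FdU-ECyd, the transcripts of the glucose transporter SLC2A1, the hexokinase HK2, the phosphofructokinase PFKP and LDHA fell in both lines. In A2780, 7 of the 10 genes fell and 0 rose, against 26.1% of all genes tested that fell and 28.6% that rose, and the median log2 FC was -0.55 for the 10 genes and 0.015 for all genes tested. In A2780cis, 5 of the 10 fell and 0 rose, against 28.9% of all genes that fell and 31.0% that rose, with medians of -0.40 and 0.037. The other genes that fell were TPI1, PGK1 and ENO1 in A2780 and HK1 in A2780cis. Leaving out the first untreated A2780cis library at 12 h raised the count in that line to 8 genes, of which 6 fell, PKM among them, and TPI1 and PGK1 rose.

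HK2, the inducible hexokinase of proliferating cells, had the largest 12 h change of the 10 in each line. Its libraries held 85.1, 90.7 and 97.4 CPM in untreated A2780 cells at 12 h and 19.9, 22.9 and 19.9 CPM in treated ones. In A2780cis the untreated libraries held 79.2, 94.5 and 93.0 CPM and the treated ones 22.7, 23.3 and 20.9 CPM. The treated and untreated libraries were far apart in both lines, and both treated groups reached nearly the same level. HK2 fell 4.36-fold in A2780 (log2 FC -2.12 ± 0.11, adjusted p = 1.77e-14) and 3.99-fold in A2780cis (log2 FC -2.00 ± 0.11, adjusted p = 5.46e-14). HK1, the constitutive hexokinase, moved less, from 88.6 ± 7.03 CPM to 77.0 ± 2.13 CPM in A2780, which missed the test (log2 FC -0.20 ± 0.11, adjusted p = 0.131), and from 85.9 ± 7.47 CPM to 55.6 ± 4.97 CPM in A2780cis, where it fell (log2 FC -0.63 ± 0.11, adjusted p = 4.09e-05). The sign of the HK1 value in A2780 depended on the scaling and was positive when libraries were scaled by size alone.

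SLC2A1, the glucose transporter, held 37.2, 41.8 and 47.6 CPM in untreated A2780 libraries at 12 h and 16.6, 18.3 and 17.8 CPM in treated ones. In A2780cis the values were 26.5, 34.6 and 34.9 CPM untreated and 12.3, 12.2 and 10.7 CPM treated, and in neither line did the libraries of the 2 groups overlap. SLC2A1 fell 2.40-fold in A2780 (log2 FC -1.26 ± 0.13, adjusted p = 1.71e-08) and 2.72-fold in A2780cis (log2 FC -1.44 ± 0.14, adjusted p = 2.33e-09). PFKP held 19.1, 20.4 and 23.3 CPM in untreated and 9.04, 11.0 and 11.7 CPM in treated A2780 libraries, and 117, 141 and 157 CPM against 50.4, 60.9 and 57.5 CPM in A2780cis. The treated libraries were lower in each line, and the A2780cis libraries were higher than the A2780 ones whatever the treatment. The fall of PFKP was 1.97-fold in A2780 (log2 FC -0.98 ± 0.14, adjusted p = 2.53e-06) and 2.46-fold in A2780cis (log2 FC -1.30 ± 0.13, adjusted p = 3.45e-09).

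LDHA, which makes lactate, held 1271, 1296 and 1263 CPM in untreated A2780 libraries and 765.5, 671 and 652 CPM in treated ones at 12 h. In A2780cis it held 1058, 941 and 885 CPM untreated and 695, 546 and 692 CPM treated. All treated libraries lay below all untreated ones within each line, and LDHA fell 1.83-fold in A2780 (log2 FC -0.87 ± 0.10, adjusted p = 6.97e-08) and 1.49-fold in A2780cis (log2 FC -0.58 ± 0.10, adjusted p = 2.41e-05). ALDOA and PKM did not pass the test in either line at 12 h. ALDOA went from 451 ± 38.1 CPM to 403 ± 27.8 CPM in A2780 and from 329 ± 38.9 CPM to 298 ± 10.1 CPM in A2780cis, and the sign of the A2780 difference turned when libraries were scaled by size alone. PKM went from 815 ± 82.9 CPM to 695 ± 14.4 CPM in A2780 (log2 FC -0.23 ± 0.11, adjusted p = 0.0692) and from 834 ± 69.0 CPM to 715 ± 10.6 CPM in A2780cis (log2 FC -0.22 ± 0.11, adjusted p = 0.0732). PKM was called lower in A2780 with the compared samples fitted alone (adjusted p = 0.0437), and in A2780cis by DESeq2 (0.0455) and with low-count genes kept (0.038).

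The 4 genes that fell in both lines at 12 h are shown with the 250 bases before a listed transcription start. They belong to a gene group known for the hypoxia-response and E-box motifs, and their changes in the other comparisons differed. The sequences are from RefSeq on GRCh38.p14, 5′ to 3′ on the gene's strand, with matches to ACGTG or GCGTG (the core of the hypoxia-response element) or CACGTG (the E-box, which holds ACGTG) on either strand in capitals. Where RefSeq lists several starts the first in the table is shown; HK2 and LDHA have 2 and PFKP has 4, and the start used in these cells was not measured. The windows are SLC2A1 at chr1:42958869-42959118, strand -, HK2 at chr2:74833877-74834126, strand +, PFKP at chr10:3067720-3067969, strand + and LDHA at chr11:18394313-18394562, strand +.
SLC2A1: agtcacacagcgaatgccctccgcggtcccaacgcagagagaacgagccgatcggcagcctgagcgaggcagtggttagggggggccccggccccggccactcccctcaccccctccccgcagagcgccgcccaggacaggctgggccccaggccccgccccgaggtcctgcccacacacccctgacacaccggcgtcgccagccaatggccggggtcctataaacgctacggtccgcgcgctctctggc
HK2: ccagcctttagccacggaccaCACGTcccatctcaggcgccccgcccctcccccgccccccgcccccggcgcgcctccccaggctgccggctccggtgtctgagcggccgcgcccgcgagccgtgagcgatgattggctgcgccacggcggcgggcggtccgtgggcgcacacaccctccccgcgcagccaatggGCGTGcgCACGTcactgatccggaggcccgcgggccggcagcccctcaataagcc
PFKP: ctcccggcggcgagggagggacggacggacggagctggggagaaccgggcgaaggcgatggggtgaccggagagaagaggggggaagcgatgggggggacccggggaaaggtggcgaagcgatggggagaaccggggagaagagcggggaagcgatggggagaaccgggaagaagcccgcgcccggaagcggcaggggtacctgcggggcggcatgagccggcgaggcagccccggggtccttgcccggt
LDHA: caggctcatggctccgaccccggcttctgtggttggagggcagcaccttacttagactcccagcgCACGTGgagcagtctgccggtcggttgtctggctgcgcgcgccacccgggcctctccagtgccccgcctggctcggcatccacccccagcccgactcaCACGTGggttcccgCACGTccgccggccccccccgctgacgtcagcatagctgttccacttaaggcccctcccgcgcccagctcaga

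The HK2 window held 2 matches to ACGTG and 1 to GCGTG, and the LDHA window held 5 to ACGTG, of which 4 are the overlapping strands of its 2 E-boxes. The window before the second HK2 start, not shown, held 4 matches to ACGTG, 2 to GCGTG and 2 to CACGTG. The single SLC2A1 window and the PFKP window shown held none of these letters, and of the other PFKP windows 1 held 1 match to ACGTG and 1 held 3 to GCGTG. Over the 24 windows of the 10 genes, 13 held ACGTG or GCGTG, 9 held ACGTG, 8 held GCGTG and 3 held CACGTG. Of all 35116 windows of this length in the table, 43.2% held ACGTG or GCGTG, 18.5% held ACGTG, 32.2% held GCGTG and 6.34% held CACGTG. A match describes the letters only, and factor binding was not measured in these libraries.

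TPI1, PGK1 and ENO1, enzymes of the triose steps, responded differently in the 2 lines at 12 h. TPI1 stood at 857 ± 37.2 CPM untreated and 699 ± 25.3 CPM treated in A2780, and at 869 ± 74.2 CPM and 1056 ± 179 CPM in A2780cis. Its fall in A2780 was small (log2 FC -0.30 ± 0.12, adjusted p = 0.0449) and did not pass the test with any one of the 6 compared libraries left out or when libraries were scaled by size alone, and the value in A2780cis pointed the other way (log2 FC 0.28 ± 0.12, adjusted p = 0.0525). PGK1 held 772, 742 and 801 CPM untreated and 597, 522 and 544 CPM treated in A2780, and 515, 436 and 424 CPM against 578, 440.2 and 553 CPM in A2780cis, where the groups overlapped. It fell in A2780 (log2 FC -0.48 ± 0.11, adjusted p = 4.67e-04) and missed the test in A2780cis (log2 FC 0.19 ± 0.11, adjusted p = 0.123). ENO1 went from 2019.5 ± 73.3 CPM to 1311 ± 33.7 CPM in A2780 (log2 FC -0.62 ± 0.11, adjusted p = 2.60e-05) and from 1882 ± 118 CPM to 1667 ± 236 CPM in A2780cis (log2 FC -0.18 ± 0.11, adjusted p = 0.166).

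The test of the line by treatment difference, coded as the response of A2780cis minus that of A2780, called these 3 genes at 12 h and no other of the 10, against 23.7% of all genes tested. The difference was 0.58 ± 0.17, adjusted p = 0.0179 for TPI1, 0.67 ± 0.15, adjusted p = 0.00225 for PGK1 and 0.45 ± 0.15, adjusted p = 0.0341 for ENO1, all on the log2 scale. For the 4 genes that fell in both lines the difference did not pass the test, at 0.13 ± 0.15 for HK2, -0.18 ± 0.19 for SLC2A1, -0.32 ± 0.19 for PFKP and 0.30 ± 0.14 for LDHA. The count of 3 became 1 without the second untreated or the third treated A2780cis library at 12 h, and 5 without the second treated A2780cis library; PGK1 was called under each of these. The call of ENO1 was also lost without any of the 3 untreated A2780, the second treated A2780, the third untreated A2780cis or the first treated A2780cis library, without a filter on low counts, and with libraries scaled by size alone, with adjusted p from 0.0504 to 0.0819.

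**Figure D2:**
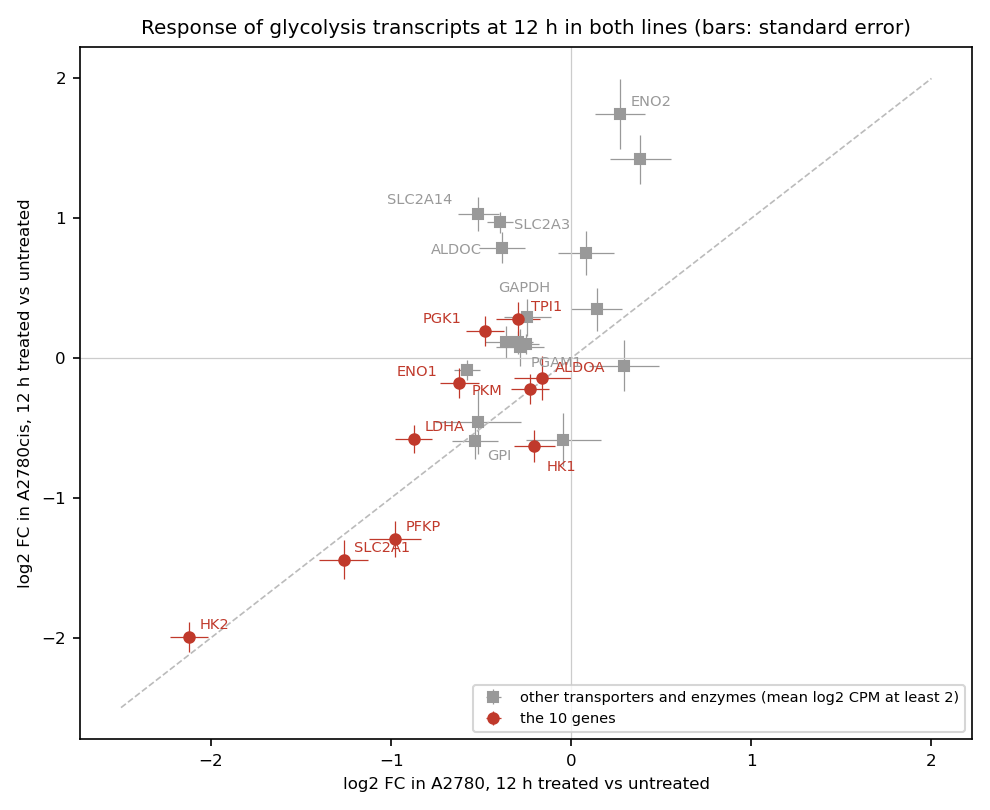
Log2 FC of 12 h treated against untreated cells in A2780 (x axis) and A2780cis (y axis) for the 10 genes (red) and the other glucose transporters and glycolytic enzymes whose mean log2 CPM was 2 or more (grey); bars are standard errors and the dashed line marks equal responses. HK2, SLC2A1, PFKP and LDHA lie low near the line, and PGK1, TPI1 and ENO1 lie above it.

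At 6 h of treatment HK2 had already fallen in both lines, and ALDOA had risen. In A2780, 2 of the 10 genes rose and 1 fell, against 16.0% and 13.4% of all genes tested, and in A2780cis 1 rose and 2 fell, against 14.4% and 16.3%. HK2 held 65.5, 66.9 and 68.2 CPM untreated and 40.9, 39.2 and 37.8 CPM treated in A2780 (log2 FC -0.77 ± 0.10, adjusted p = 5.23e-06). In A2780cis it held 83.3, 110.3 and 86.2 CPM untreated and 52.3, 45.2 and 52.7 CPM treated (log2 FC -0.90 ± 0.10, adjusted p = 3.42e-07), and all treated libraries of each line lay below all untreated ones. ALDOA rose from 294 ± 89.0 CPM to 446 ± 74.9 CPM in A2780 (log2 FC 0.61 ± 0.16, adjusted p = 0.00539) and from 179 ± 13.5 CPM to 253 ± 35.8 CPM in A2780cis (log2 FC 0.50 ± 0.16, adjusted p = 0.0196), and PKM rose in A2780 from 620.1 ± 92.1 CPM to 820.3 ± 77.6 CPM (log2 FC 0.40 ± 0.11, adjusted p = 0.00553). Without the first untreated A2780 library neither ALDOA (adjusted p = 0.0527) nor PKM (adjusted p = 0.0687) was called in A2780, which leaves HK2 alone, and the ALDOA call in A2780cis was lost without the second untreated (adjusted p = 0.0876) or the third treated library (adjusted p = 0.123).

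PFKP was the only one of the 10 called in the line by treatment test at 6 h, where 3.07% of all genes tested were called. It held 12.0, 15.9 and 14.8 CPM untreated and 20.2, 15.4 and 13.9 CPM treated in A2780, where the groups overlapped (log2 FC 0.22 ± 0.15, adjusted p = 0.294). In A2780cis it held 86.9, 96.0 and 88.1 CPM untreated and 57.3, 56.2 and 67.4 CPM treated, and it fell (log2 FC -0.58 ± 0.13, adjusted p = 0.00127). The difference between the lines (log2 FC -0.80 ± 0.20, adjusted p = 0.023) lost its call without the first untreated A2780 (adjusted p = 0.101), first treated A2780, second untreated A2780cis or first or second treated A2780cis library, and with libraries scaled by size alone or the 6 h samples fitted alone. SLC2A1 was at 26.8 ± 3.58 CPM untreated and 26.9 ± 3.71 CPM treated in A2780 at 6 h, and at 26.2 ± 3.94 CPM and 21.0 ± 1.83 CPM in A2780cis (log2 FC -0.31 ± 0.14, adjusted p = 0.0882). LDHA was at 1420.1 ± 121 CPM and 1346 ± 92.4 CPM in A2780 and at 1212 ± 54.3 CPM and 1037 ± 37.5 CPM in A2780cis (log2 FC -0.22 ± 0.10, adjusted p = 0.0948).

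The response differed with time for most of the 10 genes. The time by treatment test, coded as the 12 h response minus the 6 h response, called 8 of the 10 in A2780 and 5 of the 10 in A2780cis, all with a lower value at 12 h, against 23.7% and 24% of all genes tested in either direction. The 8 were SLC2A1, HK2, PFKP, ALDOA, TPI1, ENO1, PKM and LDHA, and the 5 were SLC2A1, HK1, HK2, PFKP and ALDOA. The count in A2780cis became 3 without the first or the third untreated 6 h library or the third treated 6 h library of that line, each of which left SLC2A1, HK2 and PFKP. ALDOA was called in both lines while its 12 h response itself passed the test in neither: in A2780 it stood at 294, 446, 451 and 403 CPM in untreated 6 h, treated 6 h, untreated 12 h and treated 12 h cells. PFKP in treated A2780cis cells was at 60.3 CPM at 6 h and 56.3 CPM at 12 h, with overlapping libraries. In untreated A2780cis cells PFKP was at 90.3 CPM at 6 h and 138 CPM at 12 h. The call of ALDOA in A2780 was lost without the first treated 6 h library of that line (adjusted p = 0.0506), and its call in A2780cis without any of the 3 untreated 6 h, the second or the third treated 6 h, or the second or the third untreated 12 h libraries (adjusted p from 0.0519 to 0.112). The call of TPI1 in A2780 was lost without the first untreated 6 h (adjusted p = 0.087), the second treated 6 h (0.0658), the third untreated 12 h (0.0609) or the second treated 12 h library (0.0597). With libraries scaled by size alone TPI1 in A2780 (adjusted p = 0.064) and ALDOA in both lines (0.0593 and 0.0546) also missed the threshold.

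**Figure D3:**
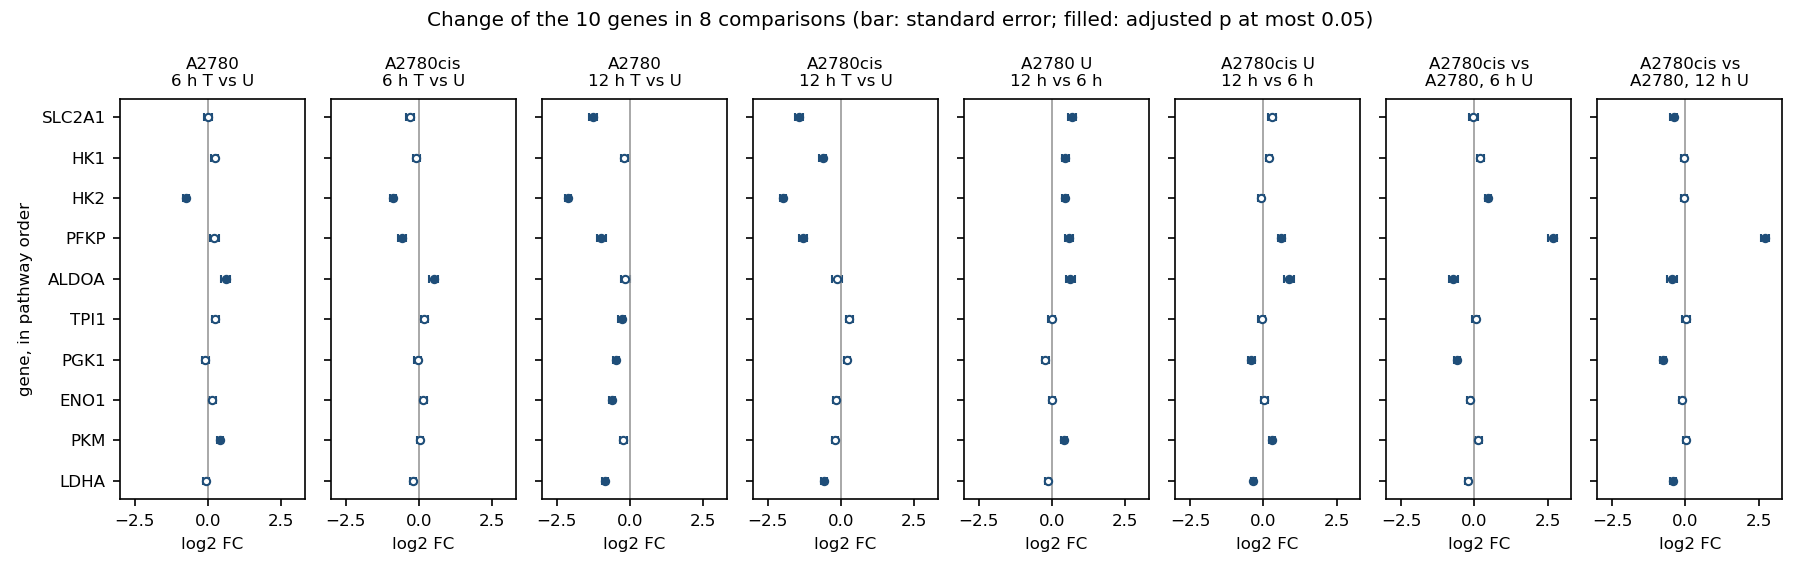
Log2 FC (x axes) of the 10 genes (y axis, in pathway order) in 8 comparisons (T treated, U untreated); bars are standard errors, and filled points have an adjusted p of at most 0.05. The columns of treated against untreated cells at 12 h reach -2.12 for HK2, and PFKP is 2.67 and 2.72 higher in untreated A2780cis than in A2780.

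Untreated cells were not constant between 6 h and 12 h after the medium change. In A2780, 6 of the 10 genes rose and 0 fell, against 16.6% of all genes tested that rose and 10.3% that fell, and the median log2 FC was 0.418 for the 10 genes and 0 for all genes tested. In A2780cis, 3 rose and 2 fell, against 18.0% and 21.9%, with medians of 0.117 and -0.09. The 12 h libraries were also deeper, with a median of 17322296 counts against 12787590 at 6 h, and the part of depth in these changes was not tested. HK2 held 65.5, 66.9 and 68.2 CPM at 6 h and 85.1, 90.7 and 97.4 CPM at 12 h in untreated A2780 cells (log2 FC 0.45 ± 0.10, adjusted p = 0.00327), without overlap. SLC2A1 rose from 26.8 ± 3.58 CPM to 42.2 ± 5.22 CPM in A2780 (log2 FC 0.66 ± 0.13, adjusted p = 0.00182), and in A2780cis it went from 26.2 ± 3.94 CPM to 32.0 ± 4.75 CPM and missed the test (log2 FC 0.29 ± 0.14, adjusted p = 0.0929). PFKP rose in both lines, from 14.2 ± 2.02 CPM to 20.9 ± 2.17 CPM in A2780 (log2 FC 0.57 ± 0.15, adjusted p = 0.00712) and from 90.3 ± 4.93 CPM to 138 ± 19.9 CPM in A2780cis (log2 FC 0.62 ± 0.13, adjusted p = 6.35e-04).

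ALDOA and PKM rose in both lines as well, though the PKM calls in both lines and the ALDOA call in A2780 depended on single libraries. ALDOA held 185, 164 and 188 CPM at 6 h and 288, 335 and 365 CPM at 12 h in untreated A2780cis cells (log2 FC 0.88 ± 0.16, adjusted p = 2.04e-04), and in A2780 it rose by 0.62 ± 0.16 on the log2 scale (adjusted p = 0.00691). PKM rose by 0.39 ± 0.11 in A2780 (adjusted p = 0.00925) and by 0.29 ± 0.11 in A2780cis (adjusted p = 0.0339), and HK1 rose in A2780 from 65.4 ± 9.66 CPM to 88.6 ± 7.03 CPM (log2 FC 0.44 ± 0.12, adjusted p = 0.00788). PGK1 and LDHA went down over the same hours in A2780cis, PGK1 from 606 ± 65.5 CPM to 458 ± 49.3 CPM (log2 FC -0.40 ± 0.11, adjusted p = 0.00443) and LDHA from 1212 ± 54.3 CPM to 961 ± 88.7 CPM (log2 FC -0.33 ± 0.10, adjusted p = 0.0108). In A2780 neither passed the test, with PGK1 at -0.23 (adjusted p = 0.104) and LDHA at -0.15 (adjusted p = 0.264) on the log2 scale. Without the first untreated A2780 library at 6 h only SLC2A1 and HK2 were called in A2780, since HK1 and PFKP (adjusted p = 0.0711 for each), ALDOA (0.0642) and PKM (0.0983) missed the threshold. In A2780, PFKP (adjusted p = 0.0515) and PKM (0.0761) also missed it without replicate 3 of the untreated 12 h libraries. The PKM call in A2780cis was lost without replicate 1 (adjusted p = 0.109) or replicate 3 (0.108) of the untreated 6 h libraries. It was also lost without replicate 2 (0.104) or replicate 3 (0.14) of the untreated 12 h libraries. Without replicate 3 at 12 h, LDHA missed the threshold as well (0.0782), which leaves 3 genes in A2780cis. The LDHA call in A2780cis was also lost with the compared samples fitted alone (adjusted p = 0.0852), without a filter on low counts (0.0581) and with scaling by size alone, where the log2 FC was -0.164 (0.0748). The test of whether the lines differed in this change called 0 of the 10 genes by edgeR and 0 by DESeq2, against 0.0296% of all genes; at an unadjusted p under 0.05 it held 1, HK2 (log2 FC -0.52 ± 0.14, adjusted p = 0.226).

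PFKP set the lines apart. Untreated A2780cis libraries held 86.9, 96.0 and 88.1 CPM of PFKP at 6 h and 117, 141 and 157 CPM at 12 h, against 12.0, 15.9 and 14.8 CPM and 19.1, 20.4 and 23.3 CPM in A2780. The lowest A2780cis library was thus well above the highest A2780 library, and the level was 6.37 times as high at 6 h (log2 FC 2.67 ± 0.14, adjusted p = 1.30e-14) and 6.59 times as high at 12 h (log2 FC 2.72 ± 0.14, adjusted p = 2.42e-15). A long noncoding RNA on the same strand, ENSG00000278419, shares 120 exon bases with PFKP and held 9.92% as many counts over the 24 libraries. It moved the same way, from 1.52 ± 0.395 CPM in untreated A2780 cells at 6 h to 11.4 ± 1.47 CPM in A2780cis (log2 FC 2.88, adjusted p = 1.18e-11). By the paper's counting settings, reads over exons of both genes were assigned to both. The part of shared reads in the PFKP values was not tested.

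Over the 10 genes, 2 were higher and 2 lower in untreated A2780cis than in A2780 at 6 h, against 25.0% and 22.9% of all genes tested, and 1 was higher and 4 lower at 12 h, against 25.4% and 27.5%. PGK1 was lower in A2780cis at both times, at 515, 436 and 424 CPM against 772, 742 and 801 CPM at 12 h (log2 FC -0.75 ± 0.11, adjusted p = 1.25e-06) and with a log2 FC of -0.58 ± 0.11 at 6 h (adjusted p = 5.42e-05). ALDOA was also lower at both, at 179 ± 13.5 CPM against 294 ± 89.0 CPM at 6 h (log2 FC -0.71 ± 0.16, adjusted p = 5.53e-04) and 329 ± 38.9 CPM against 451 ± 38.1 CPM at 12 h (log2 FC -0.45 ± 0.16, adjusted p = 0.0176). HK2 was higher in A2780cis at 6 h (log2 FC 0.48 ± 0.10, adjusted p = 3.17e-04), when A2780 held 66.9 ± 1.37 CPM and A2780cis 93.3 ± 14.8 CPM, and at 12 h the levels were 91.1 ± 6.15 CPM and 88.9 ± 8.43 CPM, with overlapping libraries. SLC2A1 (log2 FC -0.40 ± 0.13, adjusted p = 0.0115) and LDHA (log2 FC -0.41 ± 0.10, adjusted p = 0.0013) were lower in A2780cis at 12 h. Leaving out the third untreated A2780 or the first untreated A2780cis library at 12 h removed the calls of SLC2A1 (adjusted p = 0.0828 and 0.0918) and ALDOA (adjusted p = 0.075 and 0.0873) and left 3 genes. At 6 h HK1, ENO1, PKM and LDHA had log2 FC of 0.20, -0.14, 0.14 and -0.23, and none of them passed the test. LDHA was called lower in A2780cis at 6 h by DESeq2 (adjusted p = 0.0137), with its size factors (0.0261), with the compared samples fitted alone (0.0201) and with scaling by size alone (3.79e-04), which also called ENO1 (0.0318).

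Ratios between isozymes within a library do not depend on how libraries were scaled. At 12 h the treated and untreated libraries of each line did not overlap in the 4 ratios given here. How often other gene pairs would not overlap was not tested. The level of HK2 relative to HK1, per kb of exon, was 1.14 to 1.23 in untreated A2780 libraries at 12 h and 0.305 to 0.335 in treated ones, and 1.19 to 1.22 against 0.443 to 0.484 in A2780cis. HK2 was thus the more abundant hexokinase transcript in every untreated library and the less abundant in every treated one, the treated 6 h libraries included, at 0.576 to 0.613 in A2780 and 0.772 to 0.899 in A2780cis. PFKP made up 29.0 to 32.7% of the 3 phosphofructokinase transcripts (PFKL, PFKM and PFKP, per kb) in untreated A2780cis libraries at 12 h and 15.9 to 18.1% in treated ones, against 6.99 to 8.36% and 5.07 to 6.43% in A2780. LDHA relative to LDHB, the subunit more common in oxidative tissues, was 0.48 to 0.557 in untreated and 0.328 to 0.341 in treated A2780 libraries at 12 h, and 0.362 to 0.387 and 0.225 to 0.257 in those of A2780cis. SLC2A1 relative to the neuronal-type transporter SLC2A3 was 0.224 to 0.267 untreated and 0.125 to 0.144 treated in A2780, and 0.317 to 0.465 and 0.0702 to 0.0851 in A2780cis. In A2780cis SLC2A3 itself rose with treatment, so this ratio does not follow SLC2A1 alone. At 6 h LDHA to LDHB overlapped in both lines, at 0.398 to 0.433 untreated and 0.428 to 0.439 treated in A2780 and 0.321 to 0.38 and 0.32 to 0.329 in A2780cis. The PFKP share overlapped at 6 h in A2780 (5.87 to 6.996% and 6.23 to 8.57%) and not in A2780cis (24.9 to 26.5% and 17.6 to 19.96%). SLC2A1 to SLC2A3 likewise overlapped in A2780 alone (0.133 to 0.183 and 0.15 to 0.218 in A2780, 0.186 to 0.279 and 0.15 to 0.175 in A2780cis). With 3 libraries a group, an exact two-sided permutation test of a single ratio cannot give a p under 0.10, so these are given as ranges of 3 libraries.

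**Figure D4:**
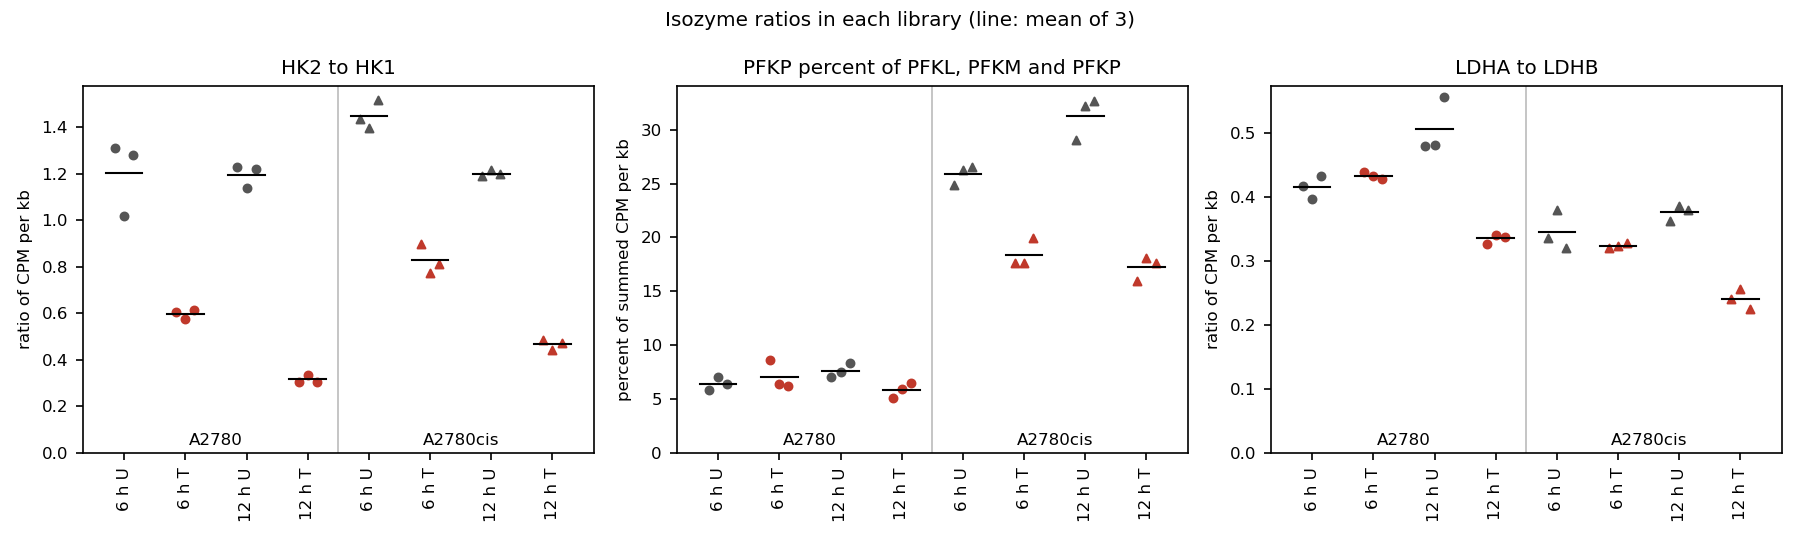
HK2 to HK1, PFKP as a percent of the 3 phosphofructokinase transcripts, and LDHA to LDHB, each per kb of exon (y axes, from 0), in the 24 libraries by group (U untreated grey, T treated red; circles A2780, triangles A2780cis; line the mean of 3). All treated libraries lie below 1 for HK2 to HK1 and all untreated ones above it.

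Ordered over the 8 groups, the 10 genes did not share a single pattern. HK2 was highest in untreated A2780cis cells at 6 h, untreated A2780 at 12 h and untreated A2780cis at 12 h, which overlapped, then separated step by step through untreated A2780 at 6 h, treated A2780cis at 6 h and treated A2780 at 6 h down to the 2 treated 12 h groups, which overlapped. SLC2A1 was highest in untreated A2780 at 12 h (42.2 CPM) and lowest in treated A2780cis at 12 h (11.8 CPM), with 4 pairs of overlapping neighbours between the second and the sixth place. All 7 neighbouring pairs overlapped for HK1, whose group means ran from 55.6 to 88.6 CPM. The ratio of the highest to the lowest group mean was 13.1 for PFKP, 4.46 for HK2, 3.59 for SLC2A1, 2.52 for ALDOA and 2.21 for LDHA, and from 1.34 to 1.98 for the other five. With libraries scaled by size alone the highest or the lowest group changed for HK1, HK2, ALDOA and TPI1. The correlation of each gene's 8 group means with the mean centred profile of the 10, which holds the gene itself, was 0.918 for HK2 and 0.828 for SLC2A1, 0.155 for PGK1 and -0.119 for ALDOA. Among 6143 other genes whose mean log2 CPM was 5 or more, the profiles most like that mean were those of SND1 (r = 0.982), MYH10 (0.977), MTMR4 (0.975), DDB1 (0.974) and ACLY (0.974), over 8 group means that share their libraries.

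The other glucose transporters and glycolytic enzymes split by line at 12 h. Of 29 such genes 22 were tested; 3 rose and 9 fell in A2780, and 8 rose and 2 fell in A2780cis, with medians of -0.25 and 0.204, where 28.6% of all genes tested rose and 26.1% fell in A2780 and 31.0% rose and 28.9% fell in A2780cis. The line by treatment test called 12 of the 22 at 12 h, all higher in the A2780cis response, against 23.7% of all genes tested in either direction. SLC2A3, a high-affinity glucose transporter, fell in A2780 from 188 to 143 CPM (log2 FC -0.40 ± 0.07, adjusted p = 6.49e-05) and rose in A2780cis from 85.5 to 168 CPM (log2 FC 0.97 ± 0.07, adjusted p = 4.07e-11), with a line by treatment difference of 1.37 ± 0.11 (adjusted p = 2.28e-09). SLC2A14, its near-identical copy, had log2 FC of -0.52 and 1.03, and reads shared between the copies make both uncertain. GAPDH, the enzyme between TPI1 and PGK1, missed the test in A2780 (log2 FC -0.24 ± 0.13, adjusted p = 0.12) and in A2780cis (log2 FC 0.29 ± 0.13, adjusted p = 0.0575), and its responses differed between the lines by 0.54 ± 0.19 (adjusted p = 0.0374). GPI, which follows hexokinase, fell in both lines (log2 FC -0.53 ± 0.13, adjusted p = 9.82e-04 and log2 FC -0.59 ± 0.13, adjusted p = 2.87e-04), and PGAM1, which precedes enolase, fell in A2780 (log2 FC -0.29 ± 0.08, adjusted p = 0.00385) and did not pass the test in A2780cis (log2 FC 0.11 ± 0.08, adjusted p = 0.24). PGAM2, the muscle isozyme, rose in both lines, with 0.549 CPM untreated and 4.06 treated in A2780, and 0.392 CPM and 3.78 CPM in A2780cis.

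Between untreated lines the same list held a large gap in ENO2, the neuronal enolase, at 19.9 CPM in A2780 and 0.727 CPM in A2780cis at 12 h (log2 FC -4.74 ± 0.20, adjusted p = 7.46e-17), and of the 22 genes 6 were higher and 9 lower in A2780cis at 12 h and 7 and 9 at 6 h, against 25.4% and 27.5% of all genes tested at 12 h and 25.0% and 22.9% at 6 h. ALDOC went the other way at 6 h (log2 FC 1.41 ± 0.13, adjusted p = 6.07e-10). From 6 h to 12 h in untreated cells 7 of the 22 rose and 2 fell in A2780, and 7 rose and 5 fell in A2780cis, where 16.6% and 10.3% of all genes did so in A2780 and 18.0% and 21.9% in A2780cis, with PFKL, the liver-type phosphofructokinase, up in both (log2 FC 0.96 ± 0.25, adjusted p = 0.0072 and log2 FC 1.55 ± 0.24, adjusted p = 5.89e-05). GPI also rose over these hours in both lines (log2 FC 0.44 ± 0.13, adjusted p = 0.0141 and log2 FC 0.41 ± 0.13, adjusted p = 0.0131). At 6 h of treatment 3 of the 22 rose and 0 fell in A2780, and 6 rose and 1 fell in A2780cis, against 16.0% and 13.4% of all genes in A2780 and 14.4% and 16.3% in A2780cis. GAPDH was among the genes that rose in A2780cis (log2 FC 0.35 ± 0.13, adjusted p = 0.0428).

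Of the 6 regulators of the flux that were tested, 3 rose and 2 fell in A2780 at 12 h of treatment (28.6% and 26.1% of all genes), and 4 rose and 1 fell in A2780cis (31.0% and 28.9% of all genes). TXNIP, which restrains glucose uptake, rose in both, in A2780 with 3.08 CPM untreated and 11.0 treated (log2 FC 1.83 ± 0.19, adjusted p = 8.34e-09), in A2780cis with 12.9 and 54.6 CPM (log2 FC 2.08 ± 0.15, adjusted p = 1.90e-11). TIGAR, a p53 target that lowers fructose 2,6-bisphosphate, rose in both (log2 FC 0.46 ± 0.09, adjusted p = 7.60e-05 and log2 FC 0.30 ± 0.09, adjusted p = 0.00445), as did PFKFB2 (0.64 and 0.54). PFKFB3, which raises that activator of phosphofructokinase, fell in both (log2 FC -0.33 ± 0.12, adjusted p = 0.0221 and log2 FC -0.85 ± 0.12, adjusted p = 1.09e-06), more so in A2780cis by the line by treatment test (-0.52 ± 0.17, adjusted p = 0.0266). PFKFB4 rose in untreated cells from 6 h to 12 h, with log2 FC of 1.28 ± 0.12 in A2780 (adjusted p = 2.53e-06) and 0.87 ± 0.14 in A2780cis (adjusted p = 5.89e-05). TIGAR fell over these hours in untreated cells, with log2 FC of -0.33 ± 0.09 in A2780 (adjusted p = 0.00852) and -0.53 ± 0.09 in A2780cis (adjusted p = 9.00e-05). Treated cells held 133 CPM of TIGAR at 6 h and 123 CPM at 12 h in A2780. In A2780cis they held 155 and 126 CPM, and the 6 h response was not called (adjusted p = 0.596). TXNIP was higher in untreated A2780cis than in A2780, by 2.43 at 6 h and 2.08 at 12 h on the log2 scale.

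Beyond pyruvate, 15 of 17 genes of pyruvate and lactate exit were tested; 3 rose and 7 fell in A2780 at 12 h of treatment, and 2 rose and 3 fell in A2780cis, against 28.6% and 26.1% of all genes in A2780 and 31.0% and 28.9% in A2780cis. PDK1, a kinase that holds pyruvate dehydrogenase inactive, fell in both lines (log2 FC -1.26 ± 0.11, adjusted p = 8.29e-10 and log2 FC -0.84 ± 0.11, adjusted p = 4.39e-07), and so did DLAT, a subunit of that complex (-0.97 and -0.96). The lactate transporter SLC16A1 also fell in both, in A2780 with 281 CPM untreated and 159 treated (log2 FC -0.82 ± 0.11, adjusted p = 5.72e-07), in A2780cis with 135 and 80.6 CPM (log2 FC -0.74 ± 0.11, adjusted p = 2.52e-06). SLC16A3, the lactate exporter of glycolytic cells, was much higher in A2780, at 7.60 CPM against 0.303 CPM in untreated A2780cis at 12 h (log2 FC -4.64 ± 0.30, adjusted p = 5.27e-13). At 12 h it was lower in treated than in untreated A2780 cells (log2 FC -0.87 ± 0.21, adjusted p = 8.23e-04). Untreated A2780 cells held 3.46 CPM of it at 6 h, and treated ones 4.16 CPM at 6 h and 4.12 CPM at 12 h. From 6 h to 12 h in untreated cells 3 of the 15 rose and 2 fell in A2780, and 2 rose and 9 fell in A2780cis (all genes, 16.6% and 10.3% in A2780 and 18.0% and 21.9% in A2780cis), with SLC16A1 at -0.59 in the latter and BSG, the chaperone of these transporters, up in both (1.01 and 1.37).

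All 7 genes of the pentose phosphate pathway, which branches off after hexokinase, were tested; 0 rose and 5 fell in A2780 at 12 h of treatment, and 0 rose and 2 fell in A2780cis, where 26.1% and 28.9% of all genes fell. TKT, the transketolase, fell in both (log2 FC -0.77 ± 0.15, adjusted p = 1.01e-04 and log2 FC -0.98 ± 0.15, adjusted p = 3.43e-06), and TALDO1 fell in A2780 (log2 FC -0.58 ± 0.11, adjusted p = 1.35e-04). In untreated cells TKT and PGLS rose from 6 h to 12 h in both lines, TKT by 0.56 in A2780 and 0.81 in A2780cis. A further list held the hypoxia-inducible factors with their regulators, and hypoxia-response genes outside glycolysis. Of its 21 genes tested, 4 rose and 8 fell in A2780 at 12 h of treatment (28.6% and 26.1% of all genes). In A2780cis 10 rose and 6 fell (31.0% and 28.9% of all genes). HIF1A, the oxygen-regulated factor, fell in both, with 259.6 CPM untreated and 122 treated in A2780 (log2 FC -1.09 ± 0.11, adjusted p = 4.21e-09) against 99.2 and 56.9 CPM in A2780cis (log2 FC -0.80 ± 0.11, adjusted p = 6.29e-07), a measure of transcript and not of the protein on which its regulation acts. ADM, which encodes the peptide adrenomedullin, rose in A2780cis, where it stood at 1.96 CPM untreated and 15.3 treated (log2 FC 2.97 ± 0.17, adjusted p = 1.57e-13), and P4HA2, a collagen prolyl hydroxylase, rose in A2780 (log2 FC 1.55 ± 0.09, adjusted p = 1.46e-13). CA9, a standard hypoxia marker, did not pass the filter on low counts.

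Reads shared with other genes touch some of the 10. Processed pseudogenes are listed for 7 of them, and the most counted was TPI1P1 with 1.96% of the counts of TPI1. ALDOA (chr16:30064164-30070457 on GRCh38, strand +) shares 520 exon bases with ENSG00000274904 on the opposite strand, which held 3.74% as many counts, and PGK1 shares 97 exon bases with ATP7A. The library kit marks the strand, but the strand setting of the counting is not given in the sources used here.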

How the data were processed

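The deposited table holds expected counts per gene. The authors trimmed reads with Trimmomatic, aligned them with STAR 2.5.2b to GRCh38.p7 and counted exons with featureCounts. Reads over exons of several genes were allowed to count for each. Multimapping reads were split into fractions, so 9.5 to 12.8% of non-zero entries were not whole and were rounded here. The reads are single in the labels and paired in the paper. Genes were named from GENCODE 44 (56948 matched). In R 4.3.3 with edgeR 4.0.16, genes were kept by filterByExpr (minimum count 10, minimum total 15; 20240 of 63299), scaled by TMM and tested by glmQLFit and glmQLFTest on 8 group means over all 24 libraries (16 residual degrees of freedom), with Benjamini-Hochberg adjustment at 0.05. The script was tested on simulated data. DESeq2 1.42.0 and other settings were alternatives. The 10 genes and all lists were chosen with earlier results of these data known. Of the other lists, GAPDH, GPI, PGAM1, TIGAR, PFKFB3, PFKFB4, PDK1 and SLC16A3 and up to 3 called genes with the smallest p per list and comparison could be named, and 5 genes by likeness of profile. A log2 FC that was not called was printed only from 0.1 upward in size.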

Additional observations from a re-analysis of the deposited data

Results flagged for a closer look

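The response to 5-FdU-ECyd differed between groups, by edgeR's quasi-likelihood test of the difference with adjustment over all genes tested, in 17 results of the 10 genes. Between the lines at 6 h, the response of PFKP was 0.80 lower in A2780cis than in A2780 on the log2 scale, a difference of -0.797. Between the lines at 12 h, the response in A2780cis was the higher one by 0.575 for TPI1, 0.669 for PGK1 and 0.448 for ENO1. Between 6 h and 12 h in A2780, the response at 12 h minus that at 6 h was -1.27 for SLC2A1, -1.36 for HK2, -1.20 for PFKP, -0.77 for ALDOA, -0.54 for TPI1, -0.77 for ENO1, -0.63 for PKM and -0.80 for LDHA. In A2780cis the same difference was -1.13 for SLC2A1, -0.54 for HK1, -1.10 for HK2, -0.72 for PFKP and -0.64 for ALDOA. The adjusted p ran from 9.21e-07 for HK2 in A2780 to 0.039 for ALDOA in A2780cis. HK2 and SLC2A1 were lower at 12 h than at 6 h of treatment in 3 of 3 libraries of each line. A lower response at 12 h can come from treated or from untreated cells, and the test does not separate them. In A2780cis, treated ALDOA went from 253 CPM at 6 h to 298 CPM at 12 h, and untreated ALDOA from 179 to 329 CPM. PFKP in treated A2780cis cells overlapped between 6 h and 12 h. No library was tested for standing apart within its group, since each group holds 3.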

How the results depend on the processing

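Of the 55 changes of the 10 genes called by the test, all kept their call with DESeq2's Wald test, with its size factors, with counts not rounded and with the replicate number as a block, 53 with the compared samples fitted alone, 53 with no filter on low counts and 48 with libraries scaled by size alone. Under scaling by size alone the median over all genes tested went from 0.015 to 0.238 (log2) for treated A2780 cells at 12 h and from 0.037 to 0.145 for A2780cis, and turned 2 values that were not called, ALDOA to 0.063 and HK1 to 0.018 in A2780 at 12 h. It moved the share of called genes that rose from 52.3 to 70.7% for A2780 at 12 h, from 47 to 61.4% for A2780cis at 6 h, from 61.7 to 71.9% and from 45.2 to 74.6% for untreated A2780 and A2780cis over time, from 41 to 27% for line by treatment at 12 h, from 0 to 20% for line by time and from 45.1 to 69.7% for time by treatment in A2780. The count for line by treatment at 6 h fell from 1 to 0 under this scaling and with the compared samples fitted alone. For ENO1 the ratio of the highest to the lowest group mean moved from 1.71 to 1.46.

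With 1 library left out, the number of the 10 genes called ran from 6 to 7 (A2780, 12 h), 5 to 8 (A2780cis, 12 h), 1 to 4 (A2780, 6 h), 2 to 4 (A2780cis, 6 h), 2 to 6 (untreated A2780 over time), 3 to 7 (untreated A2780cis over time), 4 to 5 (lines at 6 h), 3 to 5 (lines at 12 h), 0 to 1 (line by treatment, 6 h), 1 to 5 (line by treatment, 12 h), 0 to 0 (line by time), 7 to 10 (time by treatment, A2780) and 3 to 7 (time by treatment, A2780cis). No sign of a printed value turned on leaving out a library.

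The replicate numbers are shared by all groups, but same-numbered libraries did not deviate together, with correlations from -0.254 to 0.312, so the numbers were not taken as pairs. With the replicate block the counts were 7 and 6 at 12 h in A2780 and A2780cis, where TPI1 rose in A2780cis (adjusted p = 0.0494), 3 and 3 at 6 h, 6 and 5 over time, 4 and 5 between lines, 1, 4 and 0 for the line interactions and 9 and 5 for time by treatment. Each of the 10 genes had counts in every library; the 12 h libraries were deeper, and the part of depth in the changes over time was not tested.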
